A study of Mus musculus with 120 samples.

Results

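The milk caseins and mammary epithelium genes comprised 10 of the 55487 genes listed in both count tables: the caseins Csn1s1, Csn1s2a, Csn2 and Csn3, the whey protein gene Wap, the transcription factor gene Elf5, the receptor genes Prlr, Pgr and Calcr, and the growth factor gene Areg. They were followed in 120 bulk RNA sequencing libraries of immunological niches (INs), which are porous poly(e-caprolactone) scaffolds placed under the skin of female mice. They were selected on their 6-week values, since milk genes had stood out between progressors and nonprogressors at that age, so the 6-week values of NOD mice are given as a description without a test. The NOD/ShiLtJ mice, a strain that develops autoimmune diabetes spontaneously, were labelled progressors (58 libraries) when they became hyperglycemic and nonprogressors (39 libraries) when they did not. The 23 NOR libraries came from 5 mice of the diabetes-resistant strain NOR/LtJ, with sequenced biopsies 4 weeks apart from week 6 to week 22 (4 or 5 libraries at each age). Biopsies themselves were taken weekly in the study, so not every one was sequenced. All mice, NOR included, carried implants from 4 weeks of age, and no group was treated with an agent. Progressors were sampled at 6 weeks of age (10 libraries), at 7 weeks before onset (−7, 8 libraries), at −5, −3 and −1 weeks and at onset (10 libraries each). Nonprogressors were sampled at 6 weeks (11 libraries), at 14 weeks (10), at 10, 18 and 22 weeks (4 each) and at 31, 38 and 108 days after implantation (2 each, not linked to a numbered mouse). By the study's methods an IN was removed from a rotating position and replaced by a new one, and the labels used here do not give the position. The libraries fell into sequencing batch 1 (74) and batch 2 (46), and every NOR library was in batch 1 while every −7 library was in batch 2.

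Caseins form the micelles of milk, and luminal cells of the mammary gland secrete them. Prolactin binds the receptor encoded by Prlr, which activates the kinase JAK2 and the transcription factor STAT5. STAT5 together with the factor encoded by Elf5 turns on the casein and whey protein genes, while Pgr and Areg, which encode the progesterone receptor and the EGF family ligand amphiregulin, act in the branching and alveolar growth of the gland. The calcitonin receptor encoded by Calcr is found on mammary progenitor cells and also on osteoclasts, the multinucleated cells that resorb bone. In female mice the mammary fat pads lie beneath the skin.

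The 4 casein members lie together on chromosome 5 (GRCm38, GENCODE M21). Csn1s1 spans 87666208 to 87682578, Csn2 87692624 to 87699630 on the minus strand, Csn1s2a 87774567 to 87788797 and Csn3 87925579 to 87932665, and Areg follows on the same chromosome at 91139599 to 91148432. The other members are on separate chromosomes: Elf5 on 2 (103411688 to 103450989), Calcr on 6 (3685680 to 3764714), Pgr on 9 (8899833 to 8968611), Wap on 11 (6635482 to 6638637) and Prlr on 15 (10177238 to 10349180). Because STAT5 is the factor through which prolactin acts on caseins, the 250 bases before each start site were searched for its motif, TTCNNNGAA, which reads the same on both strands. The RefSeq promoters (GRCm38.p6) matched 9 of the 10 members, with 13 start sites, and Csn3 was the member without an entry. The motif occurred at 3 of these 13 start sites and in 7.02% of all 32851 promoters of that length. The matches are shown here in their 30-base surroundings, 5′ to 3′ along the gene with the motif in capitals, because these are the stretches the search turned on. They lie 100 bases before the Csn1s1 start (chr5:87666098-87666127, plus strand), 93 before the Csn2 start (chr5:87699499-87699528, minus strand) and 110 before 1 of the 3 Prlr starts (chr15:10223786-10223815, plus strand). These are RefSeq starts, which for some members, Csn2 and Csn1s2a among them, differ from the GENCODE positions above. The Csn2 site thus lies within the GENCODE span of the gene.
Csn1s1: tttgtaacaaTTCTTAGAAtttatgtaaaa
Csn2: tcacgtagacTTCTTGGAAttgaagggact
Prlr: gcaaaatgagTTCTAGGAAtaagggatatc
The whole 250 bases before the Csn1s1 start (chr5:87665958-87666207, plus strand) are shown beside those of Csn1s2a (chr5:87774200-87774449, plus strand), the casein of the same cluster in which no such motif was found, so that the 2 can be compared.
Csn1s1: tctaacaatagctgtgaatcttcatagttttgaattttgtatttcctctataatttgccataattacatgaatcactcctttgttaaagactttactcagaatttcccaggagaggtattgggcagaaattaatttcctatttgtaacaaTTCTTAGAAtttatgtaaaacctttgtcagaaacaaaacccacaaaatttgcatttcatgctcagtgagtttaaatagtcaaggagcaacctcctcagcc
Csn1s2a: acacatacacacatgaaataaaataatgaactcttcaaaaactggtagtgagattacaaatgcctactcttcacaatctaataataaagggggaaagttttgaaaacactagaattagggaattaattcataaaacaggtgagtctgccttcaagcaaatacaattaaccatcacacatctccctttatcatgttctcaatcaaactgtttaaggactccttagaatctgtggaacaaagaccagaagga
A match describes the letters of the sequence and is not evidence of binding.

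Library totals ran from 4722396 to 56185434 counts in batch 1 and from 29029239 to 43880986 in batch 2. All levels are CPM, counts scaled to the TMM effective library size, a total rescaled so that most genes match between libraries. In the 18-week library of NOR mouse 5, 85.69% of counts fell on the gene CT010467.1, and 3 counts equal 2.93 CPM there. In the other libraries 3 counts, the limit that a count of 0 allows, equal 0.0524 to 0.584 CPM. In these bulk samples, fewer cells of a type and less RNA per cell cannot be told apart.

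Milk transcripts were present in a minority of libraries at high level and near the detection limit in the rest. The 5 milk genes together (Csn1s1, Csn1s2a, Csn2, Csn3 and Wap) had at least 3 counts in 69 of the 120 libraries, at least 10 in 50 and at least 100 in 31. Their summed level ran from 0 to 68.0 CPM with a median of 0.157. The batches differed, with at least 3 counts in 35 of 74 libraries of batch 1 and 34 of 46 of batch 2. At least 100 counts were reached in 10 and 21 of them, and the median levels were 0.0848 and 1.02 CPM. Csn3, which encodes the kappa-casein that coats the micelle, had 3 counts or more in 54 libraries, Csn1s1 (alpha-casein) in 37, Csn2 (beta-casein) in 36 and Csn1s2a (another alpha-casein) in 22. Wap, a major whey protein gene of mouse milk, reached 3 counts in 7 libraries and never exceeded 4. The receptor gene Prlr was counted in every library, Pgr reached 3 counts in 112, Elf5 in 88, Calcr in 86 and Areg in 77.

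Per kilobase of annotated exon, Csn3 led the milk genes in nearly every library where they were high, while the second place varied. Among the 31 libraries with at least 100 milk counts, Csn3 had the highest CPM per kilobase in 30, and Csn1s1 in 1. The second place was taken by Csn1s1 in 20 of these libraries, by Csn2 in 5, by Wap in 4 and by Csn1s2a and Csn3 in 1 each, and the second places of Wap rest on 1 to 4 counts. Csn3 reached 8.54 CPM per kilobase in the −1 week library of progressor mouse 8, against 0.681 for Csn1s1 and 0.234 for Csn2 in the same library. In the −1 week library of progressor mouse 4 the caseins were closer, at 5.87 for Csn3, 3.80 for Csn2, 2.26 for Csn1s1 and 0.905 for Csn1s2a. The exception was the 14-week library of nonprogressor mouse 6, with 5.05 CPM per kilobase for Csn1s1 and 3.71 for Csn3. Exons of all annotated transcripts were merged for these lengths, 6247 bases for Csn1s1 and 4152 for Csn3, so a gene with long annotated exons has a lower value. The order depends on these lengths. In the 14-week library of nonprogressor mouse 10, Csn1s1 had 913 counts and Csn3 664, although Csn3 led per kilobase.

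**Figure D1:**
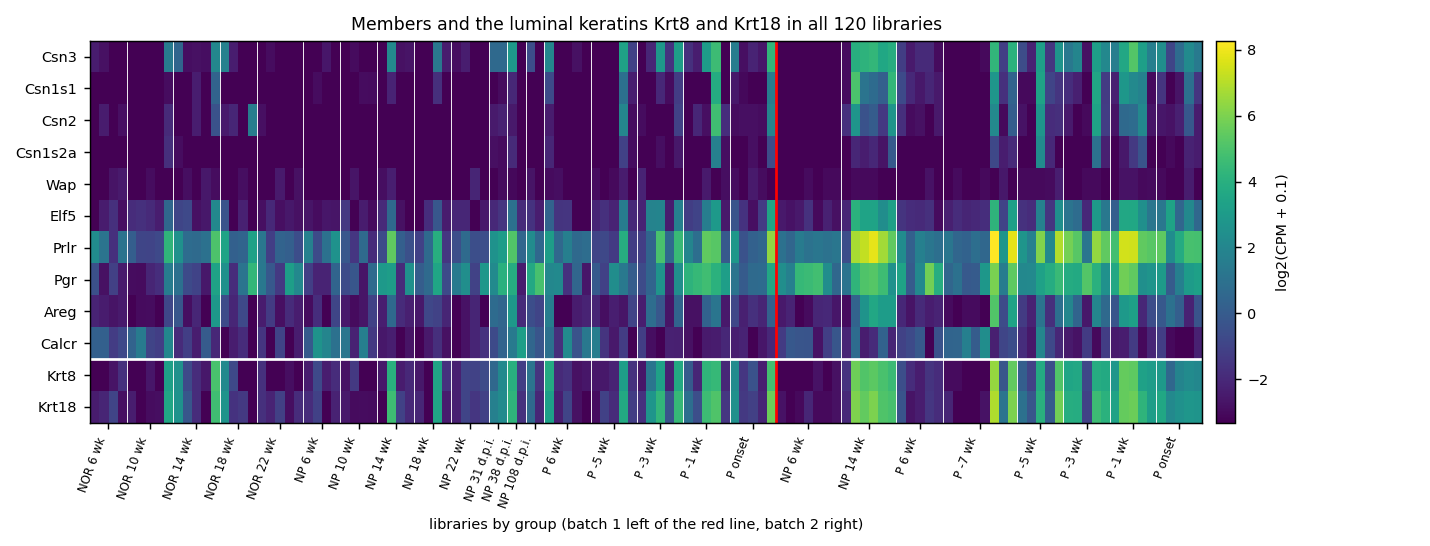
Level of each member and of Krt8 and Krt18 in all 120 libraries, as log2(CPM + 0.1) in colour, with batch 1 left of the red line and batch 2 right of it and libraries ordered by group and mouse. The same columns are bright for Csn3, Elf5, Prlr, Krt8 and Krt18, while Wap is dark throughout and Calcr is brightest in other columns.

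Milk genes were found together with the keratins of luminal epithelium, library by library. Krt8 and Krt18 encode the keratin pair of simple epithelia. All 31 libraries with at least 100 milk counts had at least 100 counts of Krt8 (147 to 3348) and of Krt18 (228 to 4669), whereas 7 and 8 of the other 89 libraries did. Elf5 had at least 30 counts in all 31 of these libraries and in 4 of the other 89, and Epcam, an epithelial adhesion gene, in 31 and 12. Prlr reached at least 100 counts in all 31 (309 to 12023) and in 21 of the rest. Lalba, which encodes the alpha-lactalbumin of the lactose synthase, had 3 counts or more in 28 of the 31 and in 7 of the 89, with 259 at most. These counts describe the same libraries and genes that carry the pattern, so no test was made of them.

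Keratins of basal cells of mammary gland and skin were also more often counted where caseins were high. At the same minimum of 30 counts as for Elf5 and Epcam, Krt5 was reached in 31 of the 31 libraries and in 16 of the other 89, and Krt14 in 28 and 13. At 100 counts Krt5 was reached in 22 and 8, Krt14 in 16 and 7 and Elf5 in 21 and 2. The highest counts of Krt14 were in libraries with few milk counts, 3407 in the 6-week library of nonprogressor mouse 4 (0 milk counts), 2334 in the onset library of progressor mouse 7 (21 milk counts) and 1774 in the −3 week library of progressor mouse 2 (4 milk counts). Elf5 had 423 and 104 counts in the last 2 of these and 2 in the first. Elf5 was thus high in some libraries where casein counts stayed low.

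**Figure D2:**
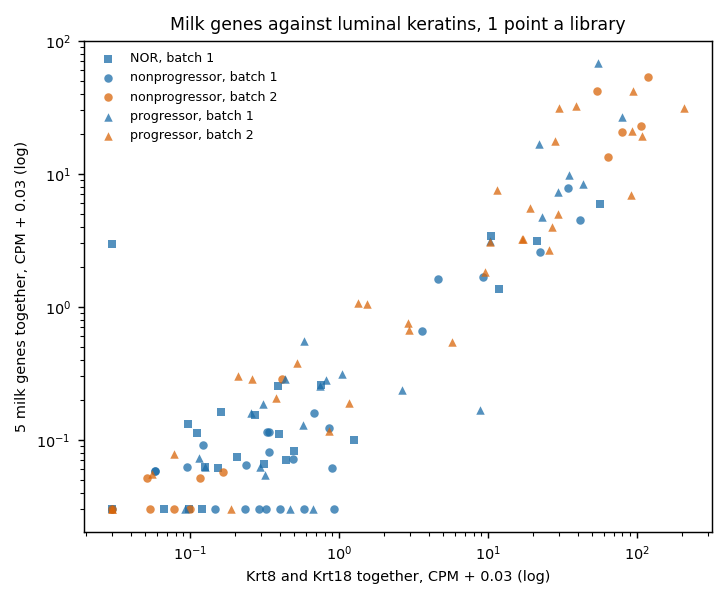
Summed CPM of the 5 milk genes (vertical, log axis after adding 0.03) against the summed CPM of Krt8 and Krt18 (horizontal, log axis after adding 0.03), 1 point for each library, with the mouse group as the symbol and the batch as the colour. Libraries above 10 CPM of milk genes all lie to the right of 20 CPM of keratin, and the single point far from the rest at upper left is the 18-week library of NOR mouse 5 with 3 milk counts.

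Across the 120 libraries, the genes whose log2(CPM + 0.1), centred within batch, followed a member most closely differed between the members, which were themselves left out of the ranking. Over 26529 genes with enough counts, the milk sum was nearest to Btn1a1 (Pearson r 0.955), a butyrophilin of the milk fat globule, then to BC006965 (0.939), Foxa1 (0.936), Krt8 (0.930) and Krt18 (0.925). Prlr was nearest to Btn1a1 and Foxa1 (0.917 each) and Itprid1 (0.909), Elf5 to Cldn8 (0.928), Rasef (0.924) and Tfap2c (0.923), and Areg to Epcam (0.869), Cldn8 (0.861) and Gata3 (0.841). Pgr was nearest to Gm16485 (0.878), which starts within a few kilobases of its end on the same strand of chromosome 9 (8971791 to 8975773). The annotated spans of the 2 do not overlap, and whether their counts come from separate transcripts was not tested. The next genes for Pgr were Papln (0.675) and Gm32014 (0.640). Calcr was nearest to Oscar (0.911), Arsb (0.909) and Mmp9 (0.907), of which Oscar and Mmp9 are osteoclast genes. These correlations describe 120 libraries that share mice and batches, and no p is given. The r of Csn3 with Prlr was 0.918 and with Elf5 0.902, while that of Csn3 with Pgr was 0.509 and with Calcr −0.192.

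Milk counts varied between the biopsies of a mouse. Of the 5 NOR mice, 1 had a biopsy with at least 100 milk counts, and none had more than 1 such biopsy. Among the numbered nonprogressors 6 of 11 mice had such a biopsy, again never more than 1 each, but mice 6 to 10 had a single biopsy after 6 weeks of age. Among the 10 progressor numbers 9 had such a biopsy and 8 had more than 1, with 5 or 6 biopsies for a mouse. The number of biopsies therefore differed between the groups, and these tallies were not compared. Progressor mouse 4 had 1608 milk counts at −1 week and 4 at onset, and progressor mouse 5 had 7 at −1 week and 537 at onset. Progressor mouse 10 was the most regular, with at least 100 milk counts in 5 of 6 biopsies and 7 in the remaining one. In NOR mouse 5, the milk count was 3, 97, 200, 3 and 1 from 6 to 22 weeks.

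At 6 weeks of age, the comparison on which the members had been selected, counts were low in both NOD groups. Csn3 in progressors of batch 1 was counted 142, 0, 0, 1 and 0 times in mice 1 to 5, and in batch 2 14, 3, 7, 7 and 1 times in mice 6 to 10. In the 11 nonprogressors Csn3 was at 0 in all but mouse 3, with 2 counts. Csn1s1 had 18, 0, 0, 0 and 0 counts in the progressors of batch 1 and 21, 6, 3, 6 and 3 in those of batch 2, against 1 count in 1 of the 11 nonprogressors. Mouse 1 therefore held nearly all casein counts of batch 1, and in batch 2 all 5 progressors had some. That mouse 1 library also had 826 counts of Krt8 and Krt18 together, and the progressor libraries of batch 2 had 55, 9, 8, 21 and 14. Prlr did not separate the groups, at 1.07 to 8.57 CPM in progressors (median 2.04) and 0.526 to 5.83 in nonprogressors (median 1.99).

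In batch 2 the presence of caseins moved with the library number as well as with the group. The 11 libraries numbered 1 to 11, which are the −7 libraries of progressor mice 1 to 4 and the 7 nonprogressor libraries of 6 weeks, had no count of the 4 caseins. All 35 libraries numbered 12 to 46 had at least 1. Csn3 was at 11.95 to 20.1 CPM in libraries 13 to 17 (nonprogressors at 14 weeks) and at 0.0249 to 0.335 CPM in the next ones, 18 to 22 (progressors at 6 weeks). The keratin pair had 0 to 6 counts in libraries 1 to 11 and 2 to 8017 in libraries 12 to 46. The part of the library number in the 6-week difference was not tested, and within batch 2 it cannot be told apart from the group.

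**Figure D3:**
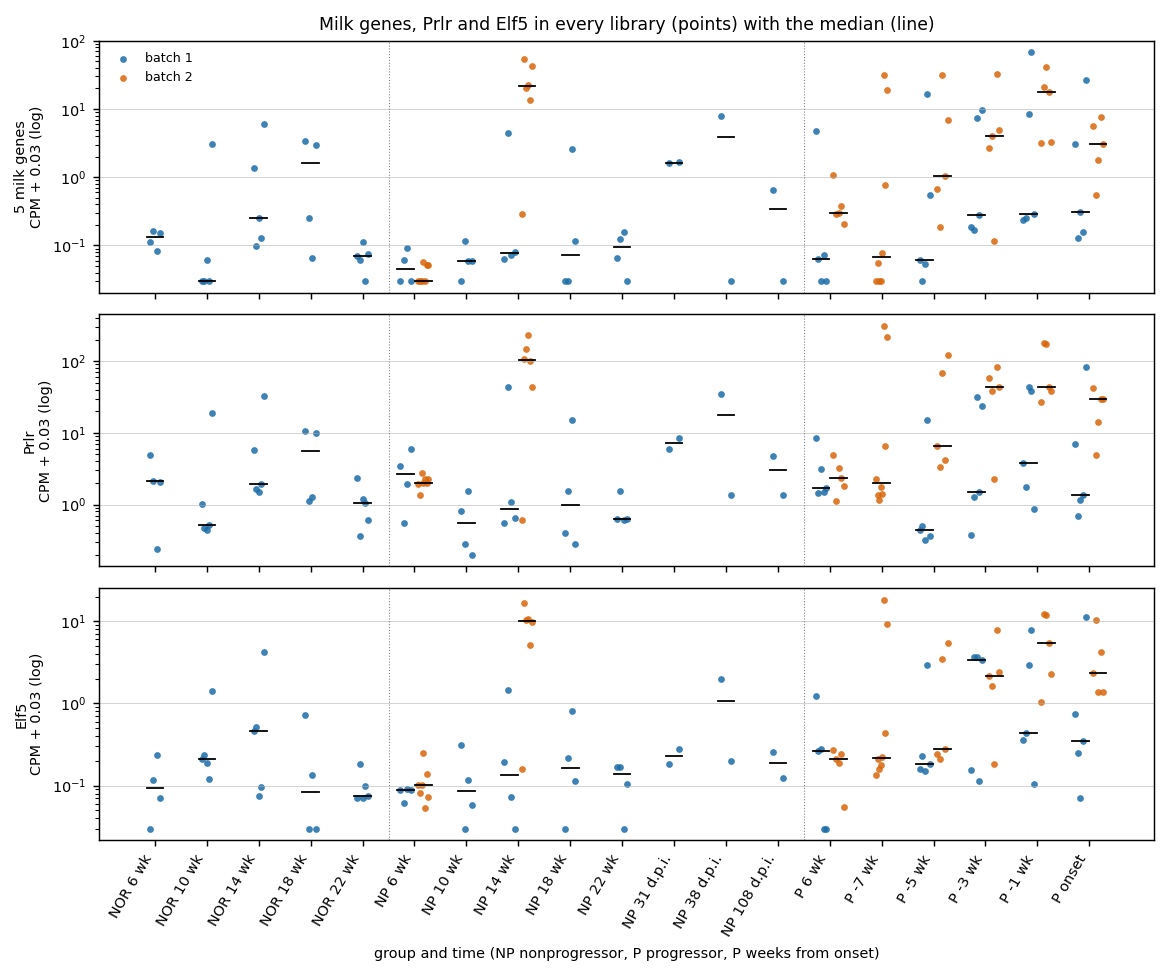
CPM of the 5 milk genes together, of Prlr and of Elf5 (log axes after adding 0.03) in every library by group and time, with batch 1 in blue and batch 2 in orange and a line at each median. Within most groups the libraries spread over more than a factor of 10, and the 14-week nonprogressors of batch 2 stand high in all panels except for mouse 5.

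NOR mice show these genes without autoimmune diabetes in the strain. Csn3 was counted 2, 1, 0 and 0 times at 6 weeks, and the later biopsies were at or near 0 except for 85 counts at 10 weeks (mouse 5), 45 and 137 at 14 weeks (mice 1 and 5) and 81 at 18 weeks (mouse 1). At 22 weeks none of the 5 mice had more than 1. The ages therefore overlapped, with single high libraries at 10, 14 and 18 weeks. Pgr lay at 0.0436 to 0.616 CPM at 6 weeks (median 0.223) and at 0.283 to 8.94 CPM at 22 weeks (median 2.37). At 18 weeks it was 5.54, 0.181, 2.13 and 20.5 CPM, of which the last is 21 counts in the library of mouse 5 with most counts on 1 gene. Without that library the test of NOR ages had 0 members at an unadjusted p under 0.05. Of the 6 members tested between the later ages and 6 weeks in NOR, 0 passed an adjusted p of 0.05 (edgeR's quasi-likelihood test with Benjamini-Hochberg adjustment over all genes tested), as did 0.0357% of all 19628 genes. DESeq2 also called 0 members, and at an unadjusted p under 0.05 there was 1, Pgr, whose log2 difference was 3.04 (SE 1.42, unadjusted p = 0.0445, adjusted p = 0.724). For Csn3 the log2 difference was 2.98 (SE 2.89), for Elf5 1.87 (SE 1.24), for Areg 1.75 (SE 1.35) and for Prlr 0.69 (SE 1.02). The other caseins and Wap had too few counts to be tested. With mouse as a block 2 genes in all passed in place of 7, and 0 members.

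Calcr was the only member tested that passed along the time before onset. That time also ran with age in these mice, and the 2 cannot be told apart. In progressors it lay at 0.103 to 5.00 CPM at −7 weeks (median 1.09, n = 8), at 0 to 3.85 at −5 weeks (median 0.212, n = 10), at 0 to 0.341 at −3 weeks (median 0.0915), at 0 to 0.305 at −1 week (median 0.0814) and at 0 to 0.348 at onset (median 0.0812, n = 10 each). The highest libraries of the first 2 times stood far above every later one, and the lowest overlapped with them. Its slope was −0.62 on the log2 scale per week towards onset (SE 0.10, edgeR's quasi-likelihood test, adjusted p = 0.000126), with the batch as a term. It was 1 of the 8 members tested, and 14.2% of all 20303 genes passed in either direction and 7.28% fell. The number of members that passed is near the share of all genes, so nothing is read from it about the members as a set. DESeq2 gave −0.63 per week (SE 0.10) and also called only this member. With mouse as a block the slope was −0.54 (SE 0.10, adjusted p = 0.00227), and 1597 genes in all passed in place of 2889.

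The slope of Calcr was negative in each batch and without the −7 biopsies, but within batch 1 it did not pass. Within batch 2 the slope was −0.61 (SE 0.12, adjusted p = 0.00123). Within batch 1, which holds no −7 library, Calcr did not pass the filter on low counts. With no filter it was −0.65 there (SE 0.18), with an adjusted p of 0.0693. Without the −7 biopsies in either batch and with no filter it was −0.65 (SE 0.13, adjusted p = 0.0147). The last value and that of batch 1 without a filter come from fits chosen after seeing the data.

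Calcr was also higher early in the mice that stayed free of hyperglycemia. In nonprogressors of batch 1 it was 0.871, 6.06, 3.74 and 1.93 CPM at 6 weeks in mice 1 to 4 and 2.28, 0.113, 3.09 and 0.282 at 10 weeks. At 14 weeks it was 0.0655, 0.0938, 0 and 0.0513, at 18 weeks 0, 0.0743, 0.195 and 0.0426, and at 22 weeks 0, 0.0462, 0.1295 and 0.224. No library of batch 1 labelled 14, 18 or 22 weeks reached the median of either earlier age, while the 6 libraries of batch 2 at 14 weeks lay at 0.0916 to 1.54 (median 0.149). From 10 to 22 weeks Calcr did not pass the filter on low counts. With no filter its slope was −0.42 per week of age (SE 0.10, edgeR, adjusted p = 0.0329). It alone passed of the 8 members fitted there, and 673 of 34666 genes passed in all. Its counts were at most 3 in every batch 1 nonprogressor library of 14 to 22 weeks. In the filtered fit Prlr (−0.16 per week, SE 0.21) and Pgr (0.11, SE 0.11) were the 2 members tested. By edgeR 0 of them passed, by DESeq2 0 and at an unadjusted p under 0.05 0, while 5.97% of 18503 genes did at the adjusted threshold (1104 genes, and 698 with mouse as a block).

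In NOR mice Calcr was also higher at 6 and 10 weeks than in most later libraries. Its highest NOR values were at 10 weeks, whereas those of the batch 1 nonprogressors were at 6 weeks. It was 1.07, 1.09, 0.313 and 0.489 CPM at 6 weeks and 1.18, 2.71, 0.416, 0.347 and 4.01 at 10 weeks. At 14 weeks it was 0.173, 0.344, 0.0902, 0.903 and 0.148. At 18 weeks it was 0, 0.0906, 0.177 and 0 and at 22 weeks 0.245, 0, 0.405, 0 and 0.0884. The 18-week values of mice 1, 3 and 4 lay below all 6-week values, but the 0 of mouse 5 allows up to 2.93 CPM, and 1 library of 22 weeks lay above the lowest of 6 weeks. The log2 difference of the later ages, 10 weeks included, from 6 weeks was −1.33 (SE 0.67), which did not pass (edgeR, adjusted p = 0.754). It therefore does not test a fall after 10 weeks. Among the libraries labelled by days after implantation, Calcr was 0.503 and 1.19 CPM at 31 days, 2.54 and 9.05 at 38 days and 1.31 and 0.744 at 108 days. The value of 9.05 was the highest of the series, in a library with 0 milk counts.

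**Figure D4:**
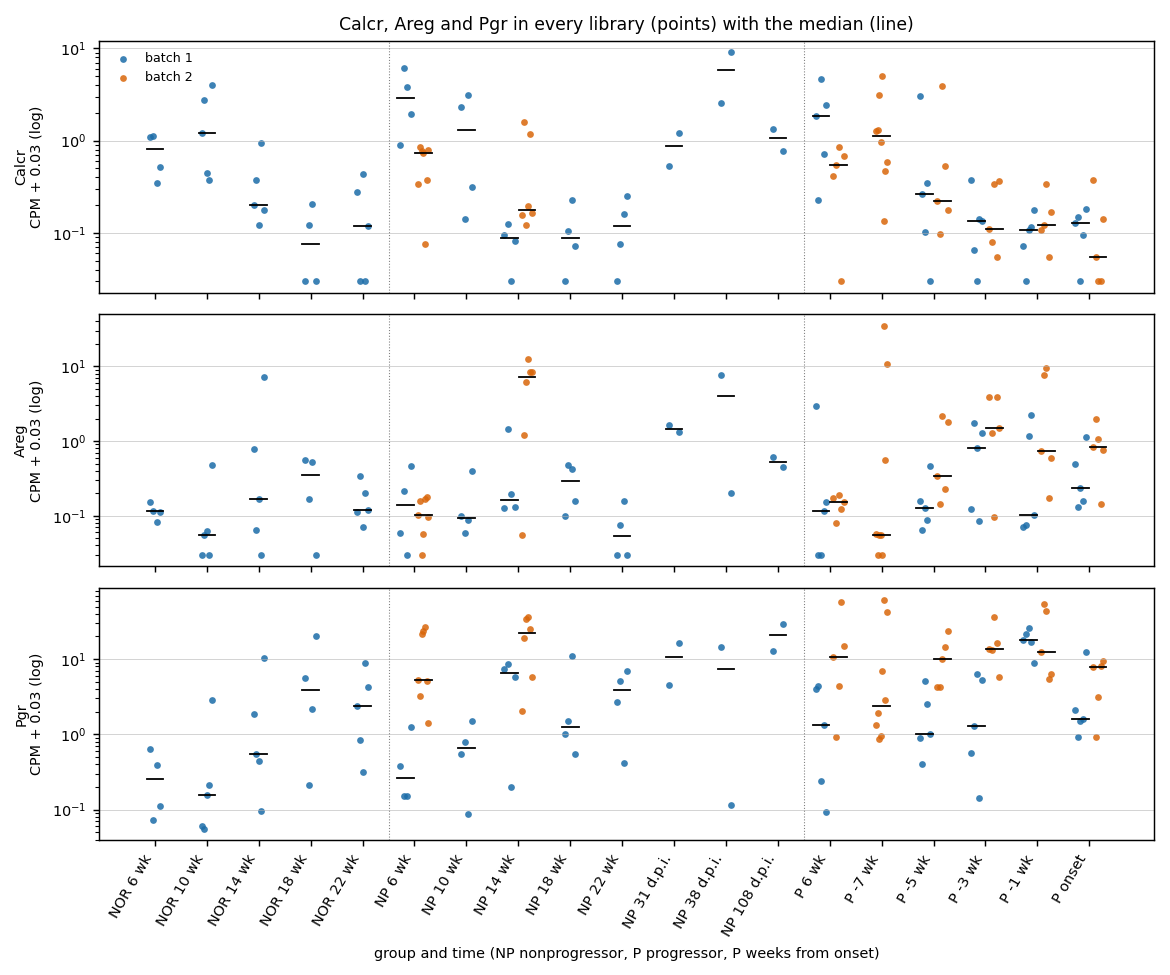
CPM of Calcr, Areg and Pgr (log axes after adding 0.03) in every library by group and time, with batch 1 in blue and batch 2 in orange and a line at each median. Calcr stands highest at 6 and 10 weeks, at −7 weeks and in the libraries labelled by days, whereas Areg and Pgr show no such order.

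Markers of osteoclast-like giant cells moved with Calcr. From −7 weeks to onset 6 of the 8 genes of that list fell and 0 rose, with a median slope of −0.164 against −0.001 over all genes, of which 7.28% fell. Oscar, an osteoclast receptor, fell by 0.49 per week (SE 0.10, edgeR, adjusted p = 0.000791), Mmp9, a gelatinase, by 0.37 (SE 0.08) and Acp5, the acid phosphatase used to stain osteoclasts, by 0.24 (SE 0.04). In nonprogressors from 10 to 22 weeks, where 3.33% of all genes fell, 2 of the 8 did, Oscar by 0.40 per week of age (SE 0.09, adjusted p = 0.0192) and Mmp9 by 0.29 (SE 0.08). All 8 genes were counted in nearly every library, and their summed level was 922 to 5564 CPM at −7 weeks and 930 to 2106 at onset in batch 2. Their part in the fall of Calcr was not tested.

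The other members tested did not pass along the time before onset. Csn3 within batch 1 was 0, 0, 0, 10.3 and 0.367 CPM at −5 weeks, 0, 0.138, 7.13, 0.224 and 8.93 at −3 weeks, 0.208, 0.0895, 8.21, 24.4 and 0 at −1 week and 2.94, 0.0401, 0.121, 0.0644 and 19.9 at onset (mice 1 to 5). Each time had 1 or 2 libraries far above the other ones, in changing mice, so the times overlapped. In batch 2 Csn3 was 0.543, 0.114, 9.23, 0.249 and 6.34 CPM at −5 weeks, 2.38, 3.84, 0.0436, 8.89 and 4.22 at −3 weeks, 3.03, 12.3, 35.5, 9.25 and 3.10 at −1 week and 5.22, 0.437, 1.63, 4.65 and 2.62 at onset (mice 6 to 10). There the −1 week libraries all lay above 3 of the 5 at −5 weeks and overlapped with the other times. At −7 weeks Csn3 was 0 in mice 1 to 4 and 0.0238, 19.5, 0.343 and 16.9 CPM in mice 6, 7, 9 and 10. Over both batches, at least 3 milk counts were found in 3 of 8 libraries at −7 weeks and 7 of 10 at −5 weeks. At −3 weeks, −1 week and onset all 10 had them. At least 100 milk counts were found in 2, 3, 6, 7 and 4 libraries from −7 weeks to onset. These numbers of libraries were not tested. The slopes were 0.15 per week for Csn3 (SE 0.16), 0.17 for Csn1s1 (SE 0.20), 0.15 for Csn2 (SE 0.22), 0.14 for Elf5 (SE 0.12), 0.06 for Prlr (SE 0.14), 0.11 for Pgr (SE 0.11) and −0.14 for Areg (SE 0.13), with adjusted p of 0.479 to 0.821 by edgeR. Pgr had medians of 1.245, 17.9 and 1.58 CPM at −3 weeks, −1 week and onset in batch 1 and of 13.8, 12.3 and 7.83 in batch 2, so the high median of −1 week was seen in batch 1 and not in batch 2, and neither was tested. The sign of the slope of Areg turned without the −7 biopsies (0.21 per week), where its highest value of the series, 34.7 CPM in mouse 7, was left out.

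**Figure D5:**
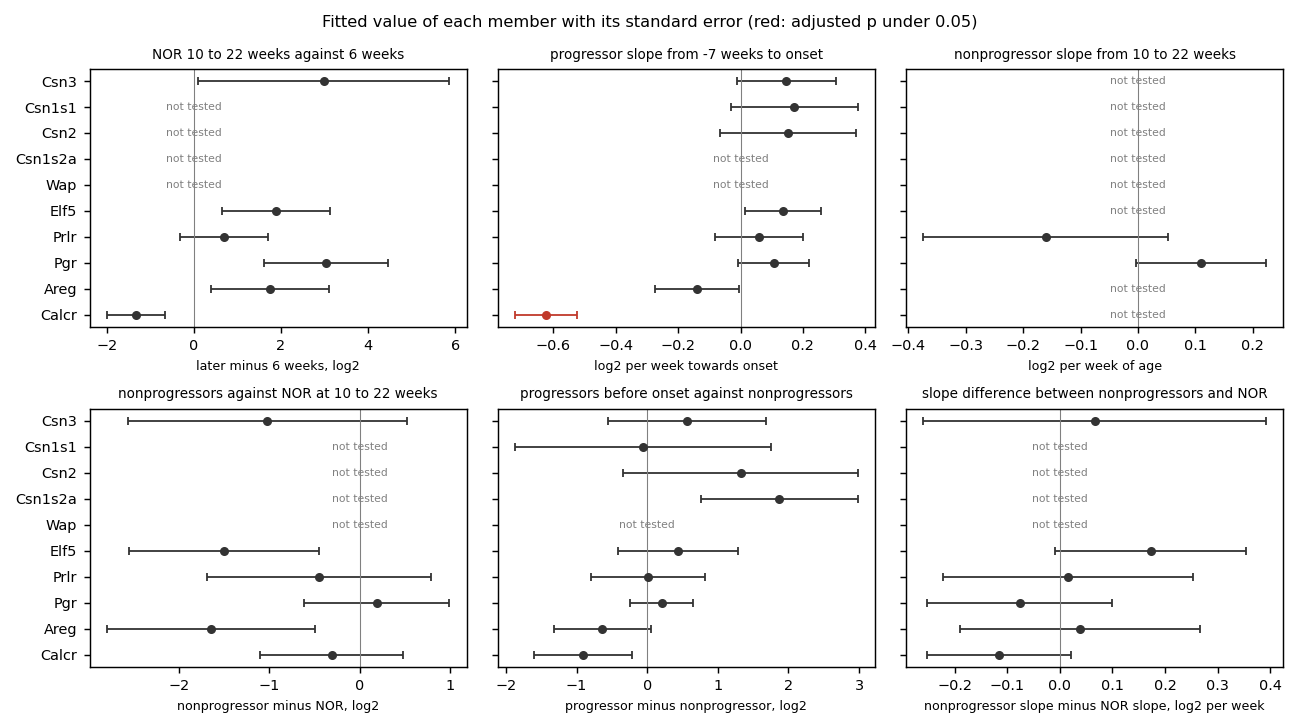
Fitted log2 difference or slope of each member (points) with its standard error (bars) in the 6 comparisons, where red marks an adjusted p under 0.05 by edgeR. Calcr in the progressor slope is the red point, and the bars of most other members cross or come near 0.

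Progressors and nonprogressors after the first biopsy were compared with the biopsies of each mouse summed (10 mice against 10, batch as a term), at −5 weeks to onset and 10 to 22 weeks. In batch 2 each nonprogressor had a single biopsy in this comparison, at 14 weeks. Times were relative to onset in progressors and ages in nonprogressors, so age was not matched. The groups overlapped because both held high libraries. In batch 2 the 14-week nonprogressors had Csn3 at 0.0255, 15.4, 17.7, 20.1, 11.95 and 14.7 CPM (mice 5 to 10), and the highest Csn3 of all, 35.5 CPM, was in progressor mouse 8 at −1 week. Mouse 5, the only low library of that group, had 10 milk counts, 8 of them on Csn2, and 15 counts of the keratin pair. Of the 9 members tested, 0 passed by edgeR (0 at an unadjusted p under 0.05), as did 0% of 23833 genes, although 2238 genes were under 0.05 before adjustment. With DESeq2 131 genes passed, none of them a member, and 1 member was under 0.05 before adjustment. The log2 differences, progressor minus nonprogressor, ran from −0.91 for Calcr (SE 0.69) to 1.87 for Csn1s2a (SE 1.11), with 0.56 for Csn3 (SE 1.12), 0.01 for Prlr (SE 0.81), 0.43 for Elf5 (SE 0.84), 0.21 for Pgr (SE 0.45) and −0.64 for Areg (SE 0.68). Within batch 1 the log2 differences were 3.33 for Csn3 (SE 1.41, unadjusted p = 0.0409), 3.05 for Elf5 (SE 0.77, unadjusted p = 0.0029), 1.12 for Pgr (SE 0.40, unadjusted p = 0.0186) and 1.46 for Prlr (SE 1.14), so that 3 members were under 0.05 before adjustment by edgeR and 0 after it (adjusted p = 0.943 for each of the 3). Within batch 2 Csn3 was −1.26, Elf5 −1.23, Pgr −0.51 and Prlr −1.09, so the sign differed between the batches. The difference between the batches was not tested, and it cannot be told apart from the differing ages of the nonprogressor biopsies.

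Nonprogressors and NOR were compared at 10 to 22 weeks within batch 1, also with the biopsies of each mouse summed (4 mice against 5). In nonprogressors Csn3 reached 4.25 CPM at 14 weeks (mouse 2) and 2.34 at 18 weeks (mouse 3) and was at most 0.0925 in the other 14 libraries, while in NOR the 4 high libraries lay at 1.295 to 4.06 CPM. Of the 6 members tested 0 passed by edgeR, 0 by DESeq2 and 0 at an unadjusted p under 0.05, against 5.05% of 22128 genes at the adjusted threshold. The log2 differences, nonprogressor minus NOR, were −1.02 for Csn3 (SE 1.54), −1.50 for Elf5 (SE 1.06), −1.65 for Areg (SE 1.15), −0.45 for Prlr (SE 1.24), −0.31 for Calcr (SE 0.79) and 0.19 for Pgr (SE 0.81). Without NOR mouse 5, which held the highest Elf5, Areg and Prlr values among NOR, those 3 differences were 0.06, 0.39 and 1.05. For the difference between the slopes with age, 0 of the 6 members tested passed (0 by edgeR, 0 by DESeq2 and 0 at an unadjusted p under 0.05), against 2.45% of 19812 genes (485 genes, and 309 with mouse as a block). For Calcr the nonprogressor slope minus the NOR slope was −0.12 per week (SE 0.14).

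In the wider pathways few genes passed from −7 weeks to onset, where 14.2% of all 20303 genes did, 6.94% rising and 7.28% falling. With lists this short, nothing is read from the counts about a list. Of the 13 genes from the prolactin receptor to STAT5, which include Prlr and Elf5, 13 were tested from −7 weeks to onset and 0 rose or fell. Jak2, Stat5a and Stat5b were counted in every library, at medians of 74.5, 39.7 and 72.8 CPM, including those without a casein count. Of 12 ovarian hormone receptors and targets 2 fell, Calcr and Tnfsf11 (RANKL, a ligand that progesterone induces in mammary gland and that drives osteoclasts), by 0.23 per week (SE 0.06, edgeR, adjusted p = 0.0046). Of 11 EGF family genes tested 2 rose, Ereg by 0.16 per week (SE 0.05) and Hbegf by 0.10 (SE 0.04), and Areg was not among them. Of 12 other milk genes tested 1 rose, Mfge8 by 0.08 per week (SE 0.03, adjusted p = 0.0316), a gene that macrophages also express and that was counted in every library.

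Other cell types of the site were present in varying amounts. Of 14 luminal and 9 basal genes tested from −7 weeks to onset 0 passed, against 14.2% of all genes, nor did any of the 8 adipocyte, 4 epidermis, 8 hair follicle and 4 skeletal muscle genes tested. The same held for the 7 mast cell, 6 type 2 and regulatory T cell and 3 salivary genes, whereas 1 of 4 sebaceous genes fell, Awat1. Adipocyte genes summed to 769 CPM (median) in the 14-week nonprogressors of batch 2 and to 15.4 and 15.2 in the 6-week nonprogressors and progressors of that batch. Of the 9 neighbours of the caseins on chromosome 5, Sult1e1 and Smr3a had no count in any library and Csn1s2b, the remaining casein, had 3 at most. Of the 7 genes of the salivary list, Bpifa2, Smr3a, Prol1 and Dcpp1 had 6 counts at most, whereas Amy1 reached 582 counts, Aqp5 1014 and Muc19 95, each with 3 counts or more in 118 or 119 libraries. For Areg, which mast cells and type 2 lymphoid cells also express, the mast cell list summed to 6.01 to 82.8 CPM and the type 2 list to 97.1 to 137 in the 14-week nonprogressors of batch 2, where Areg was 0.0255 to 12.3 CPM. Their part in the level of Areg was not tested.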

How the data were processed

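Total RNA was sequenced after removal of ribosomal RNA. The authors deposited 2 tables, 1 per batch, of expected counts for each Ensembl gene, rounded and not normalized. The submitters' processing notes name cutadapt, STAR, RSEM and GRCm38, and versions are not given in the sources used here. The tables were joined on 55487 genes. Counts were scaled by TMM and tested with edgeR's quasi-likelihood test (edgeR 4.0.16 in R 4.3.3, filterByExpr, Benjamini-Hochberg adjusted p under 0.05 over all genes tested), with DESeq2 1.42.0 as an alternative. The batch was a term where a comparison spanned both. Slopes were fitted over single biopsies, so repeated biopsies of a mouse count separately, and p-values measure the spread between these samples. In the paired alternative the mouse was the replicate block. Biopsies were paired by the mouse number that the labels give, although deviations of biopsies of the same mouse correlated at a mean r of only 0.025, 0.027 and −0.011 in NOR, nonprogressors and progressors. No replicate pair of 239 agreed within sampling noise. Milk transcripts were counted as present from 3 counts over 5 genes. In simulated counts, 200 randomly drawn genes had a log2 change of 1 over the whole range of the tested term. The progressor slope fit recovered 73.5% of them among 20107 genes, the nonprogressor slope 52.5% among 18307 and the slope difference 41% among 19671. For the NOR ages it was 65.5% among 19427, for nonprogressors against NOR 67% among 21843 and for progressors against nonprogressors 76.5% among 23343. Libraries were simulated independently, without a mouse effect, and the genes were not matched to the sparse members. The shares therefore do not give the power for the members. The members, the gene lists and the tests were chosen with earlier results of these data known. The rule for named genes took all 10 members in every comparison, at most 4 genes of a list by smallest p, and the 5 genes most like the milk sum or 3 most like a single member. Keratins, Epcam, Lalba, Jak2, Stat5a, Stat5b and genes near 0 counts were named after their values were seen. Alternatives varied the filter, the scaling, the tool, the batch term, single mice and single libraries. Promoter sequences are from RefSeq, and exon lengths and positions are from GENCODE M21. Intervals and limits at 0 cover counting error only.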

Additional observations from a re-analysis of the deposited data

Results flagged for a closer look

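Within groups of 4 to 8 libraries of a batch, 43 of 175 sets of CPM values held a highest or lowest library whose gap to its neighbour was above Dixon's critical value. That value flags about 5% of sets by chance only for normally distributed values, and these CPM are sparse and skewed. The number flagged was therefore not compared with 5%, and sets of different genes share libraries. Where the other libraries were at 0, a few counts were enough, such as 3 for Csn2 in the 6-week library of progressor mouse 1. NOR mouse 5 stood above the other 10-week NOR libraries for Csn1s2a (0.191), Csn2 (0.159), Csn3 (2.7), Elf5 (1.37), Prlr (19), Pgr (2.86) and Areg (0.446), and at 14 weeks for Csn1s1 (1.18). Nonprogressor mouse 2 stood high at 14 weeks in batch 1 for Csn1s1 (0.125), Csn3 (4.25), Prlr (43.4) and Areg (1.44), and at 22 weeks for Prlr (1.53), while mouse 3 was low at 14 weeks for Pgr (0.167). In batch 2 nonprogressor mouse 5 was the low library of 14 weeks for Csn3 (0.0255), Elf5 (0.127) and Prlr (0.586).

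At 6 weeks progressor mouse 1 was high for Csn1s1 (0.499), Csn1s2a (0.139), Csn2 (0.0832), Csn3 (3.94) and Areg (2.91), and mouse 10 was low for Elf5 (0.0249). Progressor mouse 4 was high at −5 weeks for Csn1s1 (1.87), Csn1s2a (0.373), Csn2 (3.96), Elf5 (2.87) and Prlr (15.0), and at −1 week for Csn1s1 (14.1), Csn1s2a (3.17) and Csn2 (26.3). Mouse 8 was high at −5 weeks for Csn1s2a (4.71) and Csn2 (6.5) and low at −3 weeks for Prlr (2.23). Mouse 9 was high for Wap at −7 weeks (0.0685), Csn1s2a at −3 weeks (1.92) and Csn2 at onset (0.827). Mouse 5 was high for Csn2 at −3 weeks (0.381) and for Csn1s1 (2.79), Csn1s2a (0.548) and Csn2 (3.49) at onset. The high Wap values of mouse 10 at −5 weeks (0.0965) and mouse 1 at −3 weeks (0.124) rest on 4 counts or fewer.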

How the results depend on the processing

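Depth limits the caseins, which were near the limit of 3 counts in most libraries. Libraries with milk transcripts numbered 98 from 1 count, 50 from 10 counts and 68 from 0.1 CPM. Calcr in the progressor slope kept its direction when any single mouse was left out (−0.653 to −0.545). The members called there were 0 within batch 1, with or without the filter. With the filter they were also 0 without the −7 biopsies and 0 within batch 2 without them. Calcr was not tested in those of these fits that used the filter. Without the −7 biopsies and with no filter, 1 of the 10 members fitted passed, Calcr, where 357 of 37724 genes passed in all. With no filter 1 of the 8 members fitted, Calcr, passed in the nonprogressor slope, where 673 of 34666 genes passed in all. The fits without the −7 biopsies or without their libraries 1 to 4, those within batch 1 with no filter and those without the 18-week library of nonprogressor mouse 3 were chosen after seeing the data. Counts over all genes moved with single mice: 1411 to 3153 for the progressor slope (lowest without progressor mouse 9), 2 to 472 for the nonprogressor slope (lowest without mouse 1), 2 to 637 for the slope difference (lowest without nonprogressor mouse 4), 709 to 1024 for nonprogressors against NOR (lowest without NOR mouse 1), 0 to 54 for NOR and 0 to 39 for progressors against nonprogressors.

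The mouse as a replicate block changed no call of a member, and it turned Csn2 in the progressor slope (−0.104) and Areg in the slope difference (−0.23). Values that did not pass also changed sign, and the cause was not tested. In the progressor slope these were Prlr without the batch term (−0.0918), within batch 2 (−0.0511) and without the −7 libraries 1 to 4 (−0.0136), and Pgr without the batch term (−0.0076), within batch 2 (−0.00768) and there without the −7 biopsies (−9.36e-05). Within batch 2 without the −7 biopsies Csn1s1 was −0.201, Csn2 −0.32 and Areg 0.203. Areg was 0.218 within batch 1, 0.227 there with no filter, 0.21 without the −7 biopsies and 0.211 with no filter as well. Between progressors and nonprogressors Csn1s1 was 0.481 by DESeq2 and 0.406 with biopsies entered separately. Without the batch term Csn2 was −0.128, Csn3 −0.814, Elf5 −0.977, Prlr −1.09 and Pgr −0.396, within batch 2 they were −0.938, −1.26, −1.23, −1.09 and −0.51, and Areg was 0.997 within batch 1. Prlr in the slope difference was −0.0637 without the 18-week library of nonprogressor mouse 3.

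Leaving out single mice turned further values that did not pass. For nonprogressors against NOR the ranges were −2.5 to 0.389 for Areg, −1.11 to 0.121 for Calcr, −2.4 to 0.0644 for Elf5, −0.0973 to 0.987 for Pgr and −2.43 to 1.05 for Prlr. For the progressor slope they were −0.189 to 0.0603 for Areg and −0.00406 to 0.174 for Prlr. For the slope difference they were −0.254 to 0.108 for Areg, −0.0903 to 0.42 for Csn3 and −0.256 to 0.266 for Prlr. Prlr ran from −0.527 to 1.0 in NOR, from −0.284 to 0.0981 in the nonprogressor slope and from −0.287 to 0.302 between progressors and nonprogressors, where Csn1s1 ran from −0.918 to 0.695.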
